A study of Mus musculus with 16 samples.

Results

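Of the 16 RNA sequencing libraries made from newborn C57BL/6J mouse pups, 8 held liver RNA, 4 from pups that died and 4 from pups that lived, and these were used to ask how the liver of dead and of live pups differed. A library was kept where albumin (Alb), the main secreted protein of hepatocytes, took at least 50000 of every 1000000 counts (CPM), so the members were chosen by a measured value. The kept libraries held between 51003.2 Alb CPM (dead null pups, NAC, labelled liver) and 101254.3 Alb CPM (dead null pups, NAC, labelled lung), and the nearest library outside the rule (dead null pups, placebo, labelled lung) held 9279.7. Only 4 of the 8 kept libraries carry the tissue label liver, and the other 4 are labelled lung.

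The dead libraries were from heterozygous Man1a2 pups with NAC (labelled lung) or placebo (labelled liver) and from Man1a2 null pups with NAC (1 library labelled lung and 1 labelled liver). The live libraries were from WT pups with placebo (labelled lung) or NAC (labelled liver) and from heterozygous pups with placebo (labelled lung) or NAC (labelled liver). Man1a2 encodes a Golgi mannosidase that trims N-glycans, and the mutant allele lacks its second exon. NAC (N-acetyl cysteine), a precursor of the antioxidant glutathione, was given at up to 1 g/kg body weight to both heterozygous parents from before breeding until delivery, and placebo was water. Pups were checked every 8 h for 24 h. Those that died were harvested at death and the survivors were killed at 24 h, so that dead and live pups also differ in age. The paper reports that all null pups died very soon after birth, with either treatment. By label, the dead null libraries thus come from pups much younger at harvest than the live ones. The ages at death of the pooled heterozygous pups are not known here, so ages within the dead group may differ too. The part of age in the differences below was not tested. Each library was a pool of RNA from 3 experiments, or from 2 for dead heterozygous pups, and the pool is the unit of every comparison. WT pups are only among the live and null pups only among the dead, so that over the 8 libraries survival, genotype and age cannot be told apart; heterozygous pups stand on both sides with 1 NAC and 1 placebo library each. In the live libraries the lung label goes with placebo and the liver label with NAC. The survival label of a library cannot be checked from its counts.

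At birth the placental supply of glucose ends, and the liver of a newborn mouse has to make glucose from amino acids and other precursors, to dispose of the nitrogen as urea, and to take up fat oxidation and ketone body synthesis once milk arrives. Glucagon, glucocorticoids and PPAR alpha drive much of this programme. The newborn liver is also still a blood-forming organ that holds many erythroid cells, and its cytochrome P450 enzymes are only beginning to appear.

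Marker genes were those of liver in all 8 libraries. Hnf4a, a transcription factor that defines hepatocytes, lay between 213 and 492 raw CPM. The 12 lung epithelium markers summed to between 49.8 and 73.2 raw CPM, against 10539.0 to 24814.9 in the 8 other libraries. Of 12 hepatocyte markers, 0 passed the heterozygous test described below in either direction. Library totals ran from 14115802 to 16107749 counts, globins took 1.61% to 8.68% of the counts and the ribosomal RNA symbol Rn45s 0.85% to 6.29%. No difference between dead and live libraries passed in these measures or in the number of genes detected. In these 5 exact two-sided permutation tests of 4 against 4 libraries, the lowest p was 0.229 and the lowest adjusted p 0.8. The smallest possible p is 0.0286 before adjustment, so such tests cannot show that the measures were equal. The study's RNA quality table gives each of the 4 dead libraries a lower integrity score than each of the 4 live ones; its part in the differences below was not tested. Xist, which marks female cells, had 5 counts in the dead null NAC library labelled liver and 2431 to 6667 in the other 7, so that the pools differ in sex.

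The 8 libraries did not divide by survival. On the first principal component of log2 CPM, which carried 56.8% of the variance, the dead heterozygous placebo library, the dead heterozygous NAC library and the dead null NAC library labelled lung lay on one side together with the live WT NAC library. The live WT placebo library and both live heterozygous libraries lay on the other side, together with the dead null NAC library labelled liver. Across 12993 genes, the highest correlation of any pair was between the dead null NAC library labelled liver and the live heterozygous placebo library labelled lung (Pearson r = 0.991 over genes, which are not independent replicates). The 2 dead null NAC libraries, of the same genotype and treatment, correlated at 0.9, within the lower end of the range of 0.891 to 0.991 over all 28 pairs. No pair agreed within sampling noise: the chi-square statistic per gene ran from 17.9 upwards. The libraries labelled dead null NAC liver and live WT NAC liver thus resembled libraries of the opposite survival label. Whether the pup group labels of these 2 libraries were exchanged was not tested and cannot be settled from the counts; the tissue label of 4 of the 8 libraries goes against their content. The labels were kept as deposited, so that each dead against live value below, the count of 0 calls included, holds for the libraries as labelled. Counts of genes, the lists described over the 8 libraries and the fold changes of the main genes are also given without each of these 2.

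**Figure D1:**
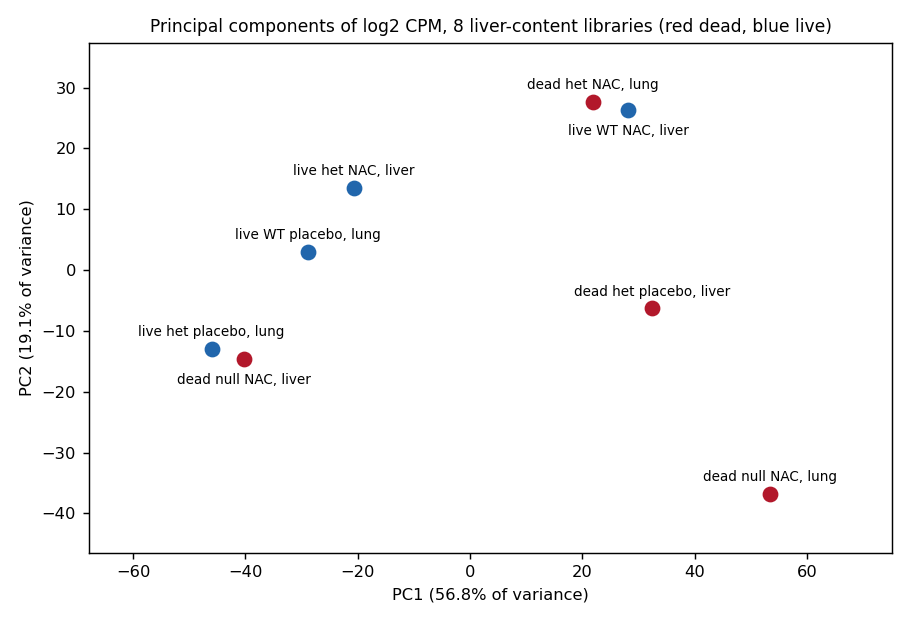
First and second principal components of log2 CPM for the 8 liver-content libraries, with the share of variance on each axis. Red points are libraries of dead pups and blue points of live pups; 1 red point (null NAC, labelled liver, PC1 -40.32) lies among the blue ones on the left and 1 blue point (WT NAC, labelled liver, PC1 28.17) among the red ones on the right.

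Dead pups were first compared with live pups over all 8 libraries, with treatment as a covariate. No difference passed the adjusted threshold. Genes higher in each dead library than in each live one included 3 of 8 urea cycle genes and 3 of 22 amino acid catabolism genes, against 1.59% of all genes. Those lower in each dead library included Igf1. Of 18 gluconeogenesis and glycogen genes, 1 was higher and 1 lower in each dead library, with a median log2 fold change of -0.27 over the list. The call count was 0 of 12993 genes tested (edgeR's quasi-likelihood test, smallest Benjamini-Hochberg adjusted p = 0.0803, for Rab30), with 702 genes at an unadjusted p under 0.05 (436 higher and 266 lower in dead pups). DESeq2 called 45 genes (41 higher) and limma-voom 0. Without the dead null NAC library labelled liver, edgeR called 11 genes (10 higher in dead pups, among them Rab30, Sds, Got1, Sgk1 and Upp2), and without either null library 2, Rab30 and Upp2. Leaving out the live WT NAC library gave 0.

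As a description that does not lean on the shared estimate of spread, the TMM-scaled CPM of the 4 dead libraries did not overlap those of the 4 live libraries at 207 genes that were higher in dead pups (1.59% of the genes tested) and at 150 that were lower (1.15%). Without the dead null NAC library labelled liver, these counts were 1208 and 1285, and without the live WT NAC library they were 569 and 557. Of the 357 genes, 64 (17.9%) also passed the test in heterozygous pups alone (44 higher and 20 lower). That test shares 4 of the 8 libraries and called 1920 of all 12963 genes it tested, 7.62% higher and 7.19% lower. The overlap is thus no independent support. The leading genes among the 64, by a rule on expression and fold change, are described next. Their ranges not overlapping was part of that rule and is no support for them.

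Amino acid breakdown and the urea cycle each held 3 genes that were higher in each dead library, more than any other list (at most 1). Of 8 urea cycle genes these were Ass1, Asl and Arg1, with 0 lower, and of 22 amino acid catabolism genes Sds, Got1 and Oat, with 0 lower, against the 1.59% and 1.15% of all genes given above. By share, the bile duct markers (1 of 6, Epcam, 16.67%) stood above amino acid catabolism (13.64%). Without the dead null NAC library labelled liver, 3 urea cycle genes were higher and 1 lower (Slc25a13) and 5 amino acid genes were higher and 1 lower (Cbs), against 9.3% and 9.89% of all genes. Without the live WT NAC library, 3 and 1 (Otc) urea cycle genes and 4 and 0 amino acid genes were separate, against 4.38% and 4.29%.

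The median log2 fold change (log2FC) of the urea cycle list was 0.34 over the 8 libraries, 0.34 without the dead null NAC library labelled liver and 0.32 without live WT NAC. That of the amino acid list was 0.24, 0.16 and 0.02 in the same order, against 0.01 for all genes over the 8 libraries. Without live WT NAC the median of all genes was also 0.01, so that no shift of the amino acid median remained. In heterozygous pups alone, 4 of the 22 amino acid genes rose (Tat, Sds, Got1 and Oat) and 2 fell (Hgd and Gpt), and 3 of the 8 urea cycle genes rose and 1 fell, against 7.62% and 7.19% of all genes.

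Sds, serine dehydratase, which turns serine into pyruvate (GRCm38, chr5:120476526-120483932, plus strand), stood at 295 CPM in dead heterozygous placebo, 151 in dead heterozygous NAC, 99.8 in dead null NAC labelled lung and 26.4 in dead null NAC labelled liver. In live pups it stood at 19.9 (WT placebo), 12.2 (WT NAC), 9.91 (heterozygous placebo) and 19.03 (heterozygous NAC). The dead values spread widely, and the lowest of them was close to the highest live value. The log2FC was 3.21 ± 0.60 (SE) over the 8 libraries (unadjusted p = 0.000557 in edgeR, adjusted p = 0.462), 3.55 without the dead null NAC library labelled liver (edgeR adjusted p = 0.0223), 3.22 without live WT NAC and 3.92 ± 0.34 in heterozygous pups alone.

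Got1, the cytosolic aspartate aminotransferase, was likewise highest in dead heterozygous placebo and lowest among dead pups in null NAC labelled liver, with 2241 CPM in dead heterozygous placebo, 1145 in dead null NAC labelled lung, 675 in dead heterozygous NAC and 251 in dead null NAC labelled liver. The live libraries lay between 104 (heterozygous placebo) and 216 CPM (WT placebo), and the log2FC was 2.75 ± 0.54, or 3.07 without the dead null NAC library labelled liver and 2.95 without live WT NAC. Oat, ornithine aminotransferase, had 355, 127, 128 and 78.7 CPM in the dead heterozygous placebo, dead heterozygous NAC and the dead null NAC libraries labelled lung and liver, against 46.2 to 65.6 in live pups.

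Ass1, argininosuccinate synthase, was the most even of these genes: the dead libraries held 114, 102, 90.9 and 74.3 CPM in the same order, and the live ones 40.2 (WT placebo), 35.3 (WT NAC), 22.6 (heterozygous placebo) and 34.6 (heterozygous NAC). Its mean was 95.2 ± 16.7 CPM in dead and 33.2 ± 7.47 CPM in live pups (SD, n = 4 each), a log2FC of 1.53 ± 0.23 with an edgeR adjusted p of 0.27. The log2FC was 1.62 without the dead null NAC library labelled liver and 1.60 without live WT NAC. Asl, which splits argininosuccinate, held 248 to 498 CPM in dead and 102 to 209 in live pups. Arg1, the arginase that releases urea, held 744 to 1381 CPM in dead and 450 to 691 in live pups. The 2 urea cycle genes of the mitochondrion did not follow: Cps1 held 1204 to 2080 CPM in dead and 939 to 1823 in live pups, and Otc was lower in dead heterozygous pups (log2FC -0.77 ± 0.29, edgeR adjusted p = 0.0499), a call that relative log expression scaling ended. Tat, the tyrosine aminotransferase, rose with a log2FC of 3.02 ± 0.37 in dead heterozygous pups, but its 308 CPM in the dead null NAC library labelled liver fell below the 373 CPM of live WT NAC.

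The sequences just upstream of the leading genes of this group that RefSeq's promoter table holds (build GRCm38.p6) are given below. Each runs 5′ to 3′ on the gene's strand over the 250 bases before the start. Capitals mark CCAAT or its reverse complement ATTGG. Got1 spans chr19:43524606-43524855 (minus strand) with 5 such matches, Oat chr7:132576399-132576648 (minus strand) with 2 and Ass1 chr2:31470020-31470269 (plus strand) with 0. Of all 32851 promoters in the table, 33.8% hold a CCAAT match on either strand, as do 5 of the 14 held for the leading genes higher in dead pups. The short motifs TGACG (from the cAMP response element, 17.8% of all promoters) and TGTTCT (from the glucocorticoid response element, 16.1%), searched on both strands, had 0 matches in these 3 windows. A match is a description of letters and not a bound site.
Got1: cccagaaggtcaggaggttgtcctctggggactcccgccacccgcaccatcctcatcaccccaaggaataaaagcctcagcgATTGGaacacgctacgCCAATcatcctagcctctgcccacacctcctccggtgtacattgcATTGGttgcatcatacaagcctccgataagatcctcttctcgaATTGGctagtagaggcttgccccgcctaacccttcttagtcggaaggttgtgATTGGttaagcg
Oat: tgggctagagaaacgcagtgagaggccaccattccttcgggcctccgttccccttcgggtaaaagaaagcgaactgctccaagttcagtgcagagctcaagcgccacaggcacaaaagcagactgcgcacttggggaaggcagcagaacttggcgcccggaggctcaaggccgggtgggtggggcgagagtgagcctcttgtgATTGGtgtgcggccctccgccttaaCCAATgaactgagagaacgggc
Ass1: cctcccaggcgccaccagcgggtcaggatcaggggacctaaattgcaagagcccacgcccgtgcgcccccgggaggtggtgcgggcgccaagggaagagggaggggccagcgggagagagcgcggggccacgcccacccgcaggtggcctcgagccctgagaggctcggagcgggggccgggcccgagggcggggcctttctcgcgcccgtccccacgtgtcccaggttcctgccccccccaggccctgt

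Genes for glucose release mostly overlapped between dead and live pups. Ppargc1a, a coactivator of the fasting programme, held 24.2 to 41.9 CPM in dead and 11.6 to 20.7 CPM in live pups. It rose in heterozygous pups with a log2FC of 1.46 ± 0.28 (edgeR adjusted p = 6.41e-06). G6pc, glucose-6-phosphatase, held 1047, 467, 387 and 268 CPM in the dead heterozygous placebo, dead heterozygous NAC and the dead null NAC libraries labelled lung and liver. Its live values of 166 to 311 CPM overlapped the dead range at WT placebo alone. Pck1, the other committed enzyme of the pathway, held 893 to 2240 CPM in dead and 692 to 1312 in live pups, with a log2FC of 0.90 ± 0.32 (unadjusted p = 0.0205) over the 8 libraries and no call in heterozygous pups. Its log2FC was 0.99 without the dead null NAC library labelled liver and 0.85 without live WT NAC. Of the 18 gluconeogenesis and glycogen genes, 1 was higher in each dead library (Ppargc1a) and 1 lower (Phka2, a subunit of phosphorylase kinase), against 1.59% and 1.15% of all genes, and a single gene each way shows no shift of the list. The counts were 3 higher and 3 lower without the dead null NAC library labelled liver, against 9.3% and 9.89% of all genes, and 1 and 1 without live WT NAC.

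The other leading genes higher in dead pups have varied roles. Rab30, a small GTPase of the Golgi, had the smallest p of all genes and, among these leading genes, the largest log2FC after Sds in heterozygous pups (3.63 ± 0.32). It stood at 305 (heterozygous placebo), 121 (heterozygous NAC), 67.3 and 42.0 CPM (null NAC labelled lung and liver) in dead pups and at 20.7 (WT placebo), 6.68 (WT NAC), 26.3 (heterozygous placebo) and 8.93 CPM (heterozygous NAC) in live pups. In both survival groups the placebo libraries held more Rab30 than the NAC libraries, and the log2FC of 3.44 ± 0.35 is net of treatment. It was 3.63 without the dead null NAC library labelled liver and 3.39 without live WT NAC.

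Sgk1, a kinase induced by glucocorticoids, held 380, 161, 247 and 45.0 CPM in the dead heterozygous placebo, dead heterozygous NAC and the dead null NAC libraries labelled lung and liver, against 28.7 to 42.5 in live pups, so that the dead null NAC library labelled liver was only just above the live range. Wnt4, a secreted Wnt ligand, held 34.3 to 106 CPM in dead and 10.9 to 18.3 in live pups. Pnpla2, the adipose triglyceride lipase, held 66.8 to 255 CPM against 45.8 to 62.7. Gabarapl1, which acts in autophagosome formation, held 113 to 288 CPM against 54.8 to 108. Eif4ebp3, a repressor of cap-dependent translation, held 111 to 172 CPM against 43.7 to 93.0. For Kif21a, a kinesin, and Ddx28, a mitochondrial RNA helicase, the dead libraries held 41.7 to 172 and 23.6 to 68.3 CPM, against 22.8 to 36.9 and 13.6 to 19.9 in live pups. In these 12 genes the highest dead value was that of the heterozygous placebo library, and the lowest was that of the dead null NAC library labelled liver in all but Wnt4. DESeq2 called 10 of the 12 over the 8 libraries, all but Eif4ebp3 and Gabarapl1, among 45 genes called in all. The 12 were chosen for separate ranges in these same libraries, so the DESeq2 calls are no support for them.

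Sgk1 belongs to the list of 19 glucocorticoid target and clock genes, which had the highest median log2FC over the 8 libraries of the lists that name a process, 0.55, with 16 of 19 members above 0. The median was 0.53 without the dead null NAC library labelled liver and 0.56 without live WT NAC. Of its members, Sgk1 alone was higher in each dead library (1 of 19, against 1.59% of all genes). Without the dead null NAC library labelled liver, 5 were higher (Fkbp5, Tsc22d3, Sgk1, Arntl and Ciart) and 2 lower (Per3 and Hlf), against 9.3% and 9.89% of all genes. Without live WT NAC, 1 was higher (Sgk1) and 0 lower, against 4.38% and 4.29%. In heterozygous pups, 6 rose (Per1, Tsc22d3, Sgk1, Zbtb16, Nr1d1 and Ciart) and 2 fell (Per3 and Hlf), against 7.62% and 7.19%. Per1, a clock gene that glucocorticoids induce, held 144, 66.2, 365 and 18.2 CPM in the dead heterozygous placebo, dead heterozygous NAC and the dead null NAC libraries labelled lung and liver. In live pups it held 22.1 (WT placebo), 129 (WT NAC), 11.9 (heterozygous placebo) and 27.1 CPM (heterozygous NAC). Its groups overlapped at the live WT NAC library, which was high, and at the dead null NAC library labelled liver, which was low.

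Among the 10 genes with the smallest p over the 8 libraries, a list chosen after their values were seen, 6 fell outside the leading set: Myo16, Zbed5, Insig2, Tnfrsf12a, Wfikkn2 and Tmem252. Insig2, which restrains cholesterol synthesis, held 143, 63.0, 66.8 and 72.0 CPM in the dead heterozygous placebo, dead heterozygous NAC and the dead null NAC libraries labelled lung and liver and 33.6 to 49.6 CPM in live pups. Tnfrsf12a, the receptor of the cytokine TWEAK, held 33.5 to 75.4 CPM in dead and 12.9 to 19.9 in live pups.

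The leading genes lower in dead pups differed by smaller factors. Igf1, the growth factor that the liver secretes, held 21.3 (heterozygous placebo), 28.4 (heterozygous NAC), 24.1 and 37.5 CPM (null NAC labelled lung and liver) in dead pups and 44.7 (WT placebo), 38.5 (WT NAC), 40.4 (heterozygous placebo) and 57.1 CPM (heterozygous NAC) in live pups. The gap between the groups was thus 37.5 to 38.5 CPM, with a log2FC of -0.79 ± 0.22 (edgeR adjusted p = 0.78) over the 8 libraries and of -0.98 ± 0.28 (edgeR adjusted p = 0.00526) in heterozygous pups. Anpep, the membrane aminopeptidase N, held 33.5 to 61.2 CPM in dead and 69.5 to 93.4 in live pups. Masp1, a protease of the lectin complement pathway, held 23.4 to 58.01 CPM against 62.4 to 67.8, and Serpind1, the thrombin inhibitor heparin cofactor II, 292 to 441 CPM against 449 to 560. Cgn, the tight junction protein cingulin, held 18.2 to 31.9 CPM against 36.1 to 45.3. The other 7 (Ptprd, Atp8a2, Vwce, Antxr2, AI182371, Tmem176a and Slc44a3) had log2FC between -0.92 and -0.54 over the 8 libraries. Over the 24 leading genes of both directions, the log2FC moved by at most 0.34 without the dead null NAC library labelled liver and by at most 0.36 without live WT NAC. Exons of Sds, Ddx28, Gabarapl1, Ptprd, Atp8a2, Vwce, Tmem176a and Slc44a3 overlap exons of a neighbour on the opposite strand and those of Eif4ebp3 and Atp8a2 one on the same strand, and whether the counting used strand is not given in the sources used here.

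**Figure D2:**
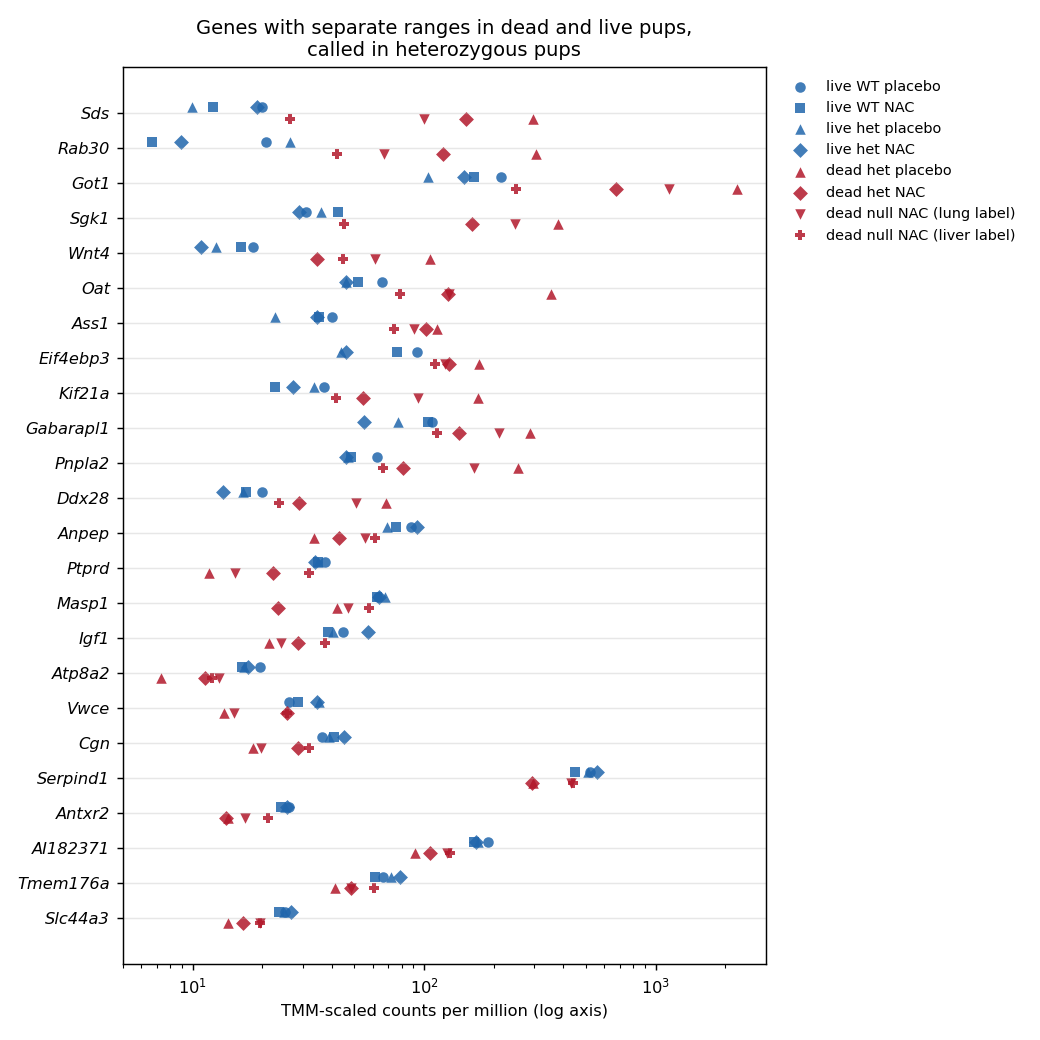
TMM-scaled CPM (log axis) in each of the 8 libraries for the 12 leading genes higher in dead pups (Sds to Ddx28) and the 12 lower (Anpep to Slc44a3), red for dead and blue for live pups, with a symbol for each library. Separate ranges were required to enter the plot; the cross of the dead null NAC library labelled liver is the dead value nearest to the live range in most genes, as for Sds (26.4 against a live maximum of 19.9).

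The antioxidant genes are of interest because NAC supplies glutathione. Of 25 genes of glutathione synthesis, NRF2 targets and metallothioneins, 0 were higher and 2 lower in each dead library than in each live one, against 1.59% and 1.15% of all genes. Without the dead null NAC library labelled liver 0 were higher and 6 lower (9.3% and 9.89% of all genes), and without live WT NAC 1 and 3 (4.38% and 4.29%). Cat, catalase, held 254 to 480 CPM in dead and 511 to 578 in live pups, and Gstp1, a glutathione transferase with near-identical copies, held 76.8 to 129 CPM against 131 to 157. Neither passed in heterozygous pups.

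The target gene Man1a2 (chr3:100562208-100685503, minus strand) held 32.7, 31.2, 28.2 and 27.2 CPM in the dead heterozygous placebo, dead heterozygous NAC and the dead null NAC libraries labelled lung and liver and 27.3, 23.8, 37.8 and 41.3 CPM in live WT placebo, WT NAC, heterozygous placebo and heterozygous NAC. The null libraries were below each heterozygous library but not below the WT range of 23.8 to 27.3 CPM. Counts over the whole gene cannot show the loss of a single exon. The N-glycan processing list, to which its product belongs, summed to 1538.4 to 1665.3 CPM in dead and 1744.0 to 1807.2 CPM in live pups. These ranges did not overlap, and leaving out a library could not have made them overlap. Of the list's 25 members, 0 had separate ranges, against 1.59% and 1.15% of all genes, and 4 were lower without the dead null NAC library labelled liver (Man1b1, Man1c1, Mgat1 and Mogs), against 9.89%. Without live WT NAC, 0 were separate, against 4.38% and 4.29%. In heterozygous pups 2 (Mgat1 and Mogs) fell, a share near the 7.19% of all genes. Of the cilium genes, Arl13b held 4.64 to 7.31 CPM in dead and 3.95 to 7.13 in live pups, and Ift74 2.36 to 5.39 against 4.37 to 6.08. Dnah11 was under the filter of 1 CPM on average and was not tested.

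Heterozygous pups were then compared alone (2 dead and 2 live libraries, treatment as covariate), since they are the only genotype on both sides. Dead heterozygous pups had less RNA for fat oxidation, cytochrome P450 enzymes and Kupffer cell markers, and more for erythroid, cell cycle, hypoxia, immediate early and p53 target genes. edgeR called 988 genes higher (7.62%) and 932 lower (7.19%) of 12963 tested at an adjusted p under 0.05. This fit has 1 residual degree of freedom and takes a spread shared by all genes, and with the spread taken from the 8 libraries instead (a fit of 4 pup groups) the same contrast called 0 genes, with 1085 at an unadjusted p under 0.05. The NAC pair and the placebo pair share no library, and their dead over live ratios had the same sign at 71.1% of 12993 genes, with a Pearson r of 0.61 over genes.

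**Figure D3:**
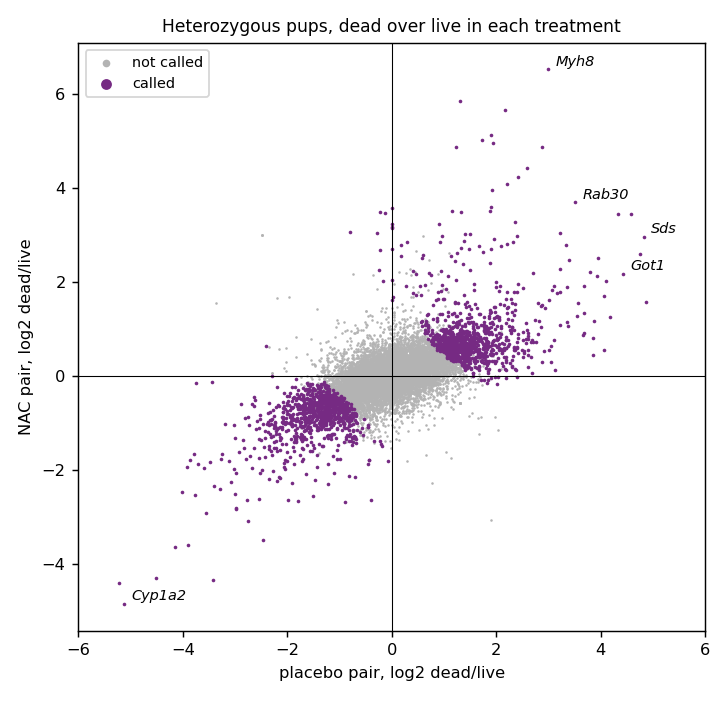
Log2 ratio of dead over live CPM in heterozygous pups, in the placebo libraries (x axis) and in the NAC libraries (y axis), with 1 point per gene; purple points were called in the test of both pairs together and grey points were not. Points lie mainly to the lower left and upper right (same sign at 71.1% of genes), with Cyp1a2 low and Myh8, Rab30, Sds and Got1 high in both.

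The list counts below are read against the 7.62% and 7.19% of all genes. In bulk RNA, fewer cells of a type and less RNA per cell cannot be told apart.

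Fat oxidation and ketogenesis had the largest share of members lower: 17 of 24 fell in dead heterozygous pups and 2 rose, with a median log2FC of -1.19 (all genes -0.01). Bdh1, which makes the ketone body 3-hydroxybutyrate, held 75.0 (placebo) and 155 CPM (NAC) in dead heterozygous pups against 723 and 530 CPM in live ones (log2FC -2.54 ± 0.34, edgeR adjusted p = 1.76e-11). Cpt2, which carries long-chain fatty acids into mitochondrial oxidation, held 22.9 and 27.1 CPM against 119 and 79.6. Other members that fell included Acadl, Hadha, Hadhb, Slc25a20, the lipid droplet protein Plin2, Cyp4a10 and Cyp4a14. The 2 members that rose, Pdk4 and Angptl4, restrain glucose oxidation and lipoprotein lipase. In contrast, of 32 nuclear genes of oxidative phosphorylation, 0 passed in either direction (median log2FC -0.37).

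Of 19 cytochrome P450 genes, 7 fell and 2 rose. Cyp1a2, a drug-metabolizing P450 of mature hepatocytes, held 0.95 and 1.09 CPM in the dead heterozygous placebo and NAC libraries against 50.2 and 45.3 in the live ones (log2FC -5.55 ± 0.35, edgeR adjusted p = 1.12e-50), and Cyp2c50 0.38 and 0.07 CPM against 8.94 and 10.99; members of this family are similar in sequence and their counts are uncertain to that extent. Among 15 liver transcription factors, 5 fell and 0 rose: Nr1h3 (LXR alpha), Nr1i3 (CAR), Foxa2, Foxa3 and Prox1. Of 25 glutathione and NRF2 genes, 6 fell, among them Ephx1 (24.1 and 36.8 CPM against 144 and 80.2), while the metallothioneins Mt1 and Mt2 rose. Of 12 iron genes 4 fell, including the iron exporter Slc40a1. Of 14 Kupffer cell and macrophage markers 5 fell (Vsig4, Cd5l, Marco, Adgre1 and Timd4) and 0 rose, while the macrophage genes Lyz2 and C1qb did not pass. Over the 8 libraries, 0 of these 14 markers had a log2FC above 0, and 0 had separate ranges. Their median log2FC was -0.47, or -0.62 without the dead null NAC library labelled liver. Without live WT NAC it was -0.41, with 2 markers above 0.

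Of 20 erythroid genes, 16 rose and 0 fell (median log2FC 1.15), among them the adult globin gene Hbb-bt, at 3635 and 4593 CPM in the dead heterozygous placebo and NAC libraries against 798 and 3022 in the live ones. Of 30 cell cycle genes, 13 rose, led by Cenpf and Mki67, and Ccnd1 fell. Of 24 hypoxia targets, 11 rose and 0 fell: Ddit4, an inhibitor of mTOR signalling, held 76.9 and 46.1 CPM against 5.05 and 9.64. Of 17 immediate early genes, 9 rose (Jun 46.3 and 76.6 CPM against 14.2 and 10.8) and 0 fell, and of 13 p53 targets, 5 rose, among them the cell cycle inhibitor Cdkn1a (96.7 and 72.8 CPM against 13.4 and 24.4). The integrated stress response list had 6 higher and 1 lower of 14. Of 17 oncofetal and imprinted genes, 0 passed.

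Markers of 2 tissues other than liver also moved. Of 8 striated muscle markers, 6 rose: Myh8, a perinatal myosin, held 13.2 and 68.8 CPM in dead heterozygous pups against 1.22 and 0.26 in live ones. The list summed to 13.3 to 694.8 CPM over the 4 dead and 9.5 to 779.7 CPM over the 4 live libraries. Of 6 exocrine pancreas markers, 5 rose, and all 5 were high in the dead heterozygous NAC library labelled lung: Ctrb1, a pancreatic chymotrypsinogen, held 196 CPM there, 0.06 in dead heterozygous placebo and 23.4 in live heterozygous NAC. Without that library the Ctrb1 log2FC reversed to -7.36 in a fit without the treatment covariate. The part of these tissues in the other differences was not tested.

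**Figure D4:**
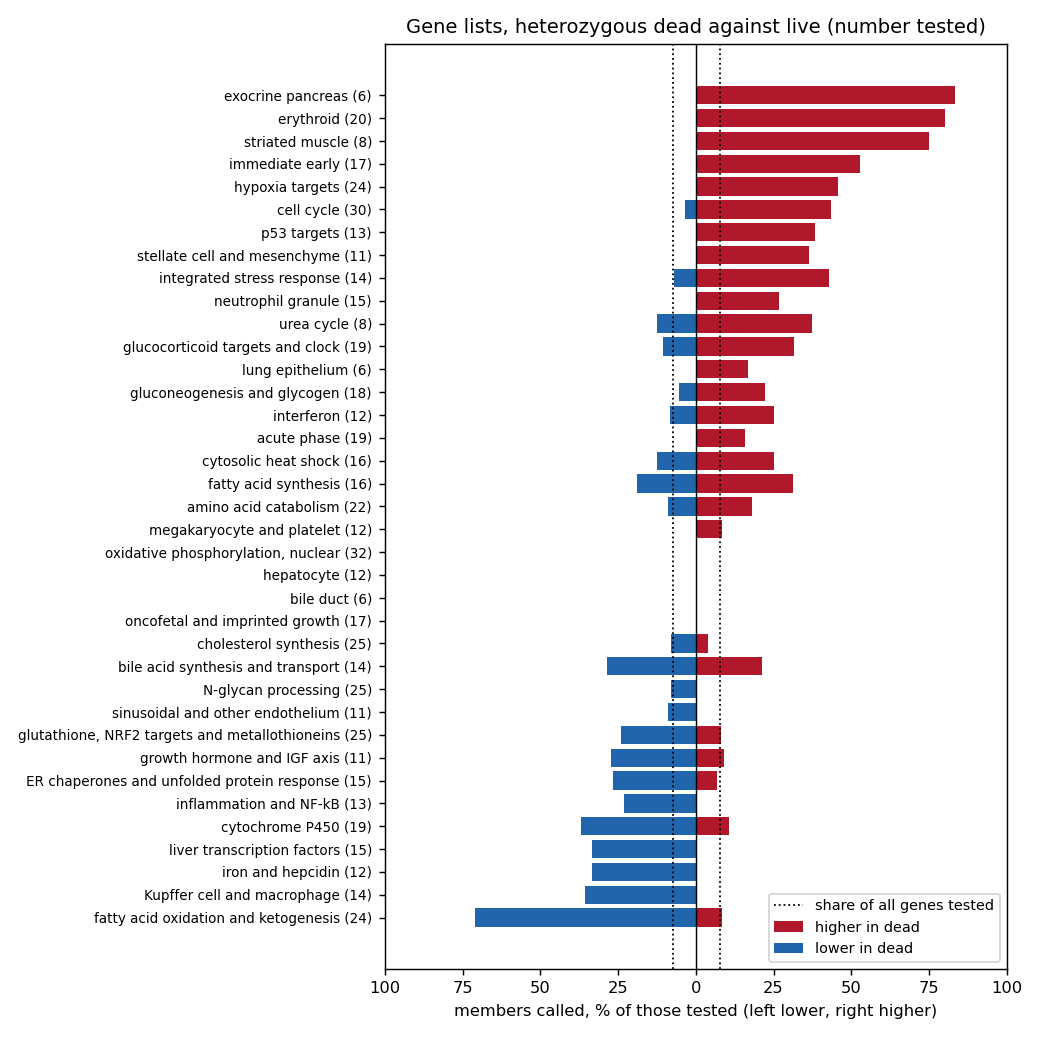
Share of each gene list's tested members (number in brackets) that were called higher (red, to the right) or lower (blue, to the left) in dead heterozygous pups, in percent, with dotted lines at the shares over all genes tested (7.62 and 7.19). The exocrine pancreas (5 of 6), erythroid (16 of 20) and striated muscle (6 of 8) lists lie at the top and fat oxidation and ketogenesis (17 of 24 lower) at the bottom.

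Of the 4 libraries outside that fit, 2 followed the heterozygous differences in the direction of their survival label and 2 went against it. At 1904 genes called in heterozygous pups and tested over all 8 libraries, a library was set on the dead or the live side by whichever heterozygous mean it was nearer to. The live WT placebo library was on the dead side at 6.0% of the genes and the dead null NAC library labelled lung at 82.1%, each as its label has it. The live WT NAC library was on the dead side at 77.7%, and the dead null NAC library labelled liver at 4.5%, each against its label.

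Single genes showed this division plainly. Cyp1a2 held 0.52 CPM in live WT NAC and 1.06 in dead null NAC labelled lung, against 25.5 in live WT placebo and 38.9 in dead null NAC labelled liver. Bdh1 held 157 and 120 CPM in the first pair and 570 and 584 in the second. Ddit4 held 64.7 and 84.9 CPM against 7.91 and 9.79, Hbb-bt 5422 and 3606 CPM against 2055 and 881, and Myh8 274 and 152 CPM against 0.38 and 0.19. For each of these genes the 8-library log2FC was within 2 SE of 0. That of Cyp1a2 was -1.84 over the 8 libraries, -4.76 without the dead null NAC library labelled liver and -3.19 without live WT NAC, and that of Myh8 was 0.63, 1.23 and 5.69 in the same order. The median log2FC of the fat oxidation list was -0.44 over the 8 libraries, -0.81 without the dead null NAC library labelled liver and -0.80 without live WT NAC. The medians of the erythroid, cell cycle, hypoxia and immediate early lists lay between -0.24 and 0.18 over the 8 libraries, between 0.14 and 0.43 without the former library and between 0.31 and 0.85 without the latter. Of the 1904 genes called in heterozygous pups, 64 (3.36%) had separate ranges over the 8 libraries, a share near the 2.75% of all genes tested.

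**Figure D5:**
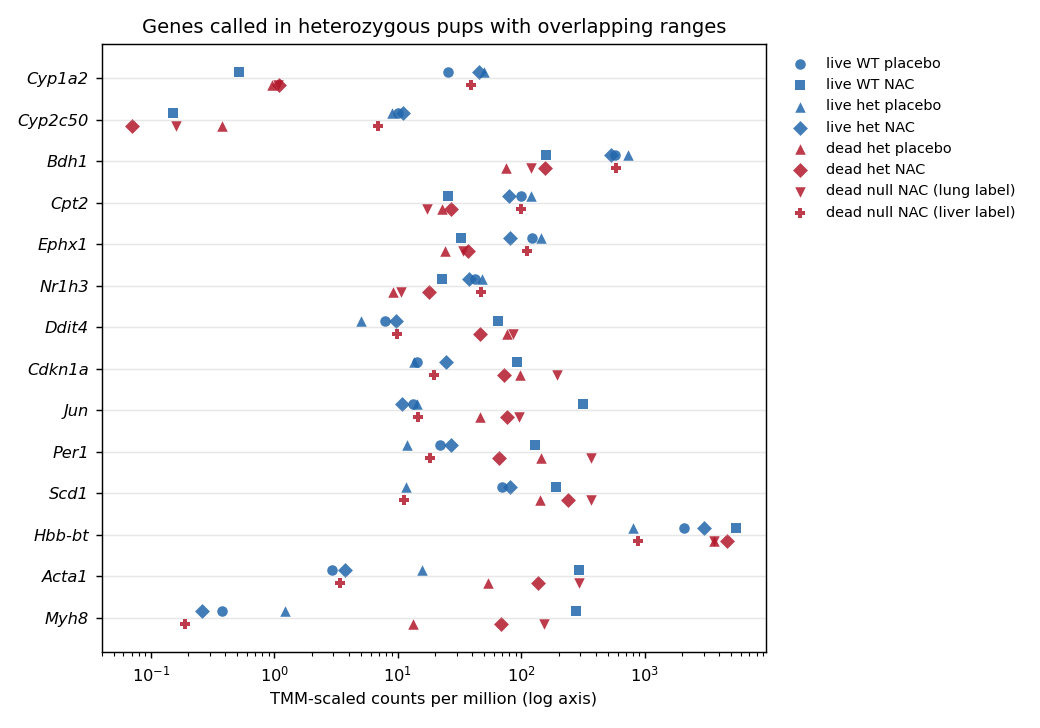
TMM-scaled CPM (log axis) in each of the 8 libraries for 14 genes that were called in heterozygous pups and whose dead and live ranges overlap, chosen after their values were seen to show the division. The blue square (live WT NAC) lies with the red symbols and the red cross (dead null NAC, labelled liver) with the blue ones, as for Cyp1a2 (0.52 and 38.9 CPM) and Myh8 (274 and 0.19 CPM).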

How the data were processed

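The authors aligned adapter-trimmed reads of stranded poly(A) libraries to the mouse genome (mm10 per the labels) with the Omicsoft Sequence Aligner and deposited estimated counts of uniquely mapped reads per gene symbol, without normalization; the submitters' processing notes name R 4.0.3 and edgeR 3.30.3. Counts were rounded to whole numbers, and the 25054 entries were kept apart where they share a symbol.

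The 8 libraries were taken by the Alb rule and grouped by their labels alone. Dead was compared with live in edgeR 4.0.16 (R 4.3.3) by the quasi-likelihood test on treatment and survival, with TMM factors over the libraries in the fit, genes averaging 1 CPM or more, and a Benjamini-Hochberg adjusted p under 0.05. Heterozygous libraries were fitted alone in the same way, and both fits were tested on simulated counts. In the text, log2FC is dead minus live with its SE, and CPM is TMM-scaled over the 8 libraries unless called raw. The study's exact test at an assumed coefficient of variation of 0.2, made for 1 library against 1, was not used. Whether libraries shared pups is not given in the sources used here, so p-values measure at most the spread between these pools. In the heterozygous fit, with 1 residual degree of freedom, they rest on a spread shared by all genes and not on each gene's own.

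The members and the 37 gene lists were chosen with earlier results of these data known, so list counts are read beside the share of all genes called. Named genes are Man1a2, 2 genes of each list (the called members with the smallest p, or else the most abundant), Alb, Hnf4a, 3 cilium genes, and the 12 largest log2FC each way among called genes of 10 CPM or more on average whose dead and live ranges did not overlap, clone-named genes left out. Since no gene was called over the 8 libraries, calls in heterozygous pups stand in for them. Positions are from GENCODE M21 (GRCm38) and promoters from RefSeq. Alternatives were DESeq2 1.42.0, limma-voom (limma 3.58.1), other scalings, filters and covariates, and leaving out libraries. List counts, permutation tests and plots were made in Python 3.11.15 (scipy 1.17.1, pandas 2.3.3, matplotlib 3.10.9).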

Additional observations from a re-analysis of the deposited data

Results flagged for a closer look

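In 76 sets of 4 libraries (library measures and named genes, in dead and in live pups), the highest or lowest value stood apart from the other 3 by Dixon's criterion at 95% in 2, where chance gives about 1 in 20. Insig2 held 143.29 CPM in the dead heterozygous placebo library and at most 72.02 CPM in the other 3 dead libraries. Pnpla2 held 62.74 CPM in live WT placebo and 45.83 to 48.48 CPM in the other live libraries. Outside the comparisons, the library of dead null placebo pups labelled lung held 9279.7 raw Alb CPM, against 10.5 to 135.0 in the other 7 libraries that were left out, together with 13005.3 raw CPM of lung epithelium markers.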

How the results depend on the processing

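Over the 8 libraries, the count of 0 genes called became 1 without a filter on low counts (Rab30), 45 with DESeq2, 2 without the null libraries and 1920 with the heterozygous libraries alone, and stayed at 0 in limma-voom and under every other scaling, filter, covariate or model tried, the fit of 4 pup groups, chosen after seeing the data, included. Leaving out each library gave 0 to 11, above 0 only without the dead null NAC library labelled liver. The log2FC of 30 genes (the 24 leading genes and the 10 with the smallest p, which share 4) passed the threshold in 54 of 623 alternative values; its sign was fixed by how these genes were chosen.

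In heterozygous pups, for which all alternatives were chosen after seeing the data, the 1920 calls became 1255 without a filter, 806 with DESeq2, 395 (134 higher) without a covariate, 959 with the labelled tissue as covariate, 1210 with an absolute log2FC of at least 1 and 0 in the fit of 4 pup groups. Leaving out a library left no residual degree of freedom unless the covariate was dropped too; then 3 genes were called without live heterozygous placebo, 326 without dead heterozygous NAC, 100 without live heterozygous NAC and 42 without dead heterozygous placebo, so the lone library is assumed to vary like the other pair. Of 1016 alternative values of 79 named genes, 448 lost the call and 1 reversed (Ctrb1, -7.36). List members called numbered 125 higher and 77 lower, 132 and 74 with relative log expression factors and 116 and 85 with library size alone.

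Leaving out each library moved the genes with separate ranges from 207 higher and 150 lower to between 257 and 1208 and between 169 and 1285, the highest without the dead null NAC library labelled liver; fewer libraries make separate ranges easier by construction. Without live heterozygous placebo they were 466 and 259, and without dead heterozygous NAC 439 and 389; without dead null NAC labelled lung the lower count was 231. The labels carry no replicate numbers to pair libraries by; treatment as covariate pairs the heterozygous libraries, 1 dead with 1 live in each treatment, and the fit without it is given above. Pools of 3 or 2 experiments and 4 libraries a side limit the precision; depth, at 14115802 counts or more a library, limits only the lowest genes.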
